A study of Arabidopsis thaliana with 9 samples.

Results

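The genes described here are the 62 loci, of 37328 in the authors' deposited table, that carry the description Peroxidase superfamily protein. The rule reads that description alone and no measured value, but the family was picked with results of these data known, so its counts are given as a description and no test of the family as a whole was made. The name was checked against the RefSeq annotation of the TAIR10.1 build. A plant peroxidase domain, the mark of the class III enzymes, is recorded for 61 of the 62 loci. The exception is DOX1 (AT3G01420), an alpha-dioxygenase that starts the breakdown of fatty acids to oxylipins, which is kept by the rule but is not a class III peroxidase. Some class III peroxidases are described in other words in the table, and 11 such loci are given for comparison further on.

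RNA was sequenced from whole Arabidopsis thaliana seedlings of the Col-0 ecotype, grown for 7 days at 22 °C under constant white light (50 µmol/m2/s) once the seeds had been kept 3 days in the cold at 4 °C. The groups were the wild type, the glk12 line with mutations in both GLK1 and GLK2, and the RPGE2-OX line, which overexpresses RPGE2, and each was sequenced in 3 replicates, which makes 9 libraries. Both GLK proteins switch on nuclear genes for photosynthesis, and RPGE2 is known to hold them back. The sources used here do not give the promoter of the RPGE2 transgene, the number of independent lines or the glk alleles. In the authors' deposited table GLK1 (AT2G20570) stood at a log2 ratio of -2.64 and GLK2 (AT5G44190) at -1.41 in glk12 (both q = 0.0019), and at 0.45 and 0.40 in RPGE2-OX (q = 0.013 and 0.038). Neither the table nor the annotation used here pairs RPGE2 with a locus, so its overexpression was not checked. The table holds 1 log2 ratio and 1 q value for each gene and line over the wild type, with no level or count for a library, so depth and the spread of single replicates are unknown and errors enter through q alone. Nothing in the labels says that the replicates were separate cultures, so q may measure technical spread.

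Class III peroxidases are haem enzymes that plant cells secrete into the cell wall and the vacuole. They use hydrogen peroxide to oxidise phenolic compounds, which links monolignols into lignin, joins suberin phenolics and cross-links wall proteins, and some of them can also release reactive oxygen during defence. The family is large in all land plants, many of its genes lie in tandem groups, and a large share of the Arabidopsis members is known mainly from roots.

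In glk12 the family moved in both directions. Of 53 members that the authors tested, 13 rose and 8 fell at q below 0.05, and 32 did not pass. These are 39.6% of the tested members, with 24.5% rising and 15.1% falling, while over all 21843 tested genes the authors' deposited table calls 5.67%, with 2.63% higher and 3.04% lower. The median log2 ratio of the tested members was -0.14 and the quartiles were -0.59 and 1.27, against a median of 0.02 and quartiles of -0.22 and 0.23 over all tested genes. Most members thus lay below 0, 34 of 53, while the rises were larger than the falls in size, with a median log2 ratio of 2.11 among the 13 rises and -0.85 among the 8 falls. Each of the 13 rises was above 2-fold, against 2 of the 8 falls.

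In RPGE2-OX 8 of 51 tested members rose, 11 fell and 32 did not pass. That is 37.3% called, with 15.7% higher and 21.6% lower, where the authors' deposited table calls 6.55% of 21680 tested genes, 2.57% higher and 3.98% lower. The median log2 ratio was -0.27 with quartiles of -0.49 and 0.11, against 0.01, -0.18 and 0.18 over all tested genes. In this line 3 of the 8 rises and 1 of the 11 falls reached 2-fold. Smaller rises were a trait of the whole table there, since 121 of 557 called rises over all genes reached 2-fold in RPGE2-OX and 270 of 575 in glk12. The comparisons of both lines share the wild-type libraries, so a gene's values in the lines are set side by side here and are not independent of each other. Over both lines 26 members were called, 8 rising in both, 6 falling in both, 5 rising in glk12 alone, 2 falling in glk12 alone and 5 falling in RPGE2-OX alone, and 0 were called in opposite directions. A call in a single line does not show that the lines differ.

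**Figure D1:**
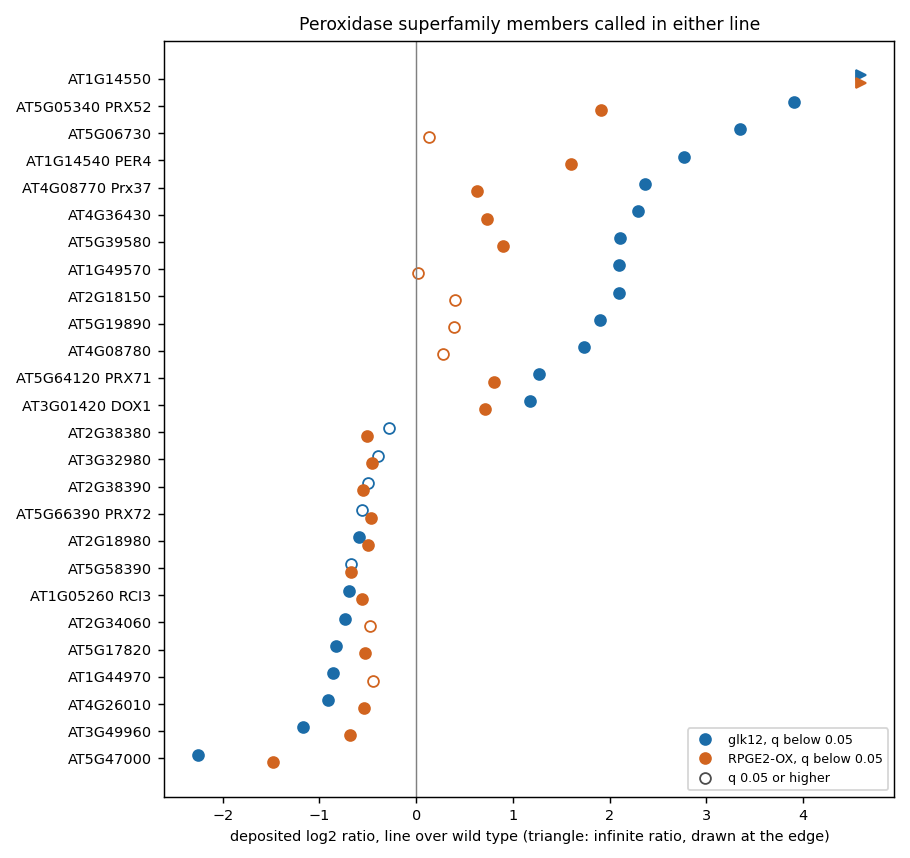
Deposited log2 ratios of the 26 members called in at least 1 line, with glk12 in blue and RPGE2-OX in orange (x axis, log2 of line over wild type), filled where q is below 0.05 and open otherwise. The 13 members that rose sit apart from the 13 that fell, and triangles at the right edge mark AT1G14550, whose ratio is infinite.

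**Figure D2:**
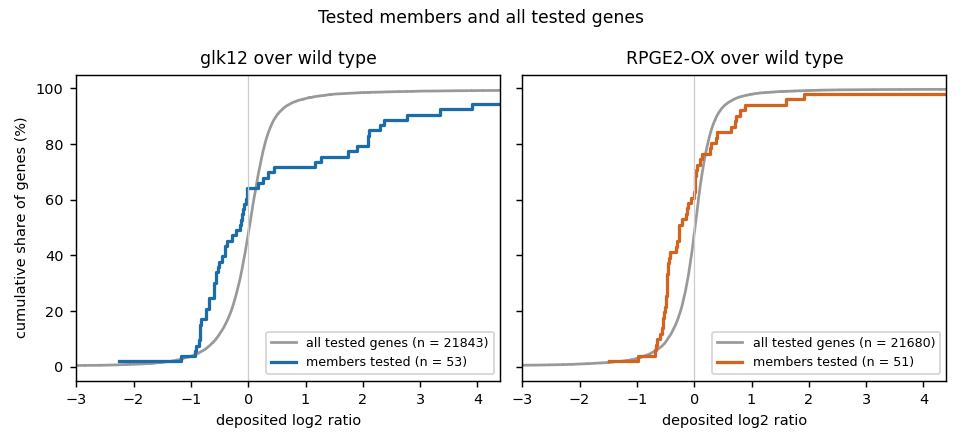
Cumulative share of genes (y axis, percent) against the deposited log2 ratio (x axis) for the tested members (coloured) and all tested genes (grey) in each line. The members' curve lies left of the grey curve below 0 and right of it at high ratios, most clearly in glk12, where 3 members lie beyond the right edge.

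The member with the largest finite called rise was PRX52 (AT5G05340, chromosome 5, 1578869 to 1580875 on TAIR10.1), a peroxidase known to take part in lignin formation in the stem. Its log2 ratio in the authors' deposited table was 3.91 in glk12 (q = 0.0019), and in RPGE2-OX it was 3.76-fold higher than the wild type (1.91, q = 0.037). The error implied by that q was 0.62 in RPGE2-OX and at most 0.96 in glk12. Most rises in glk12, 12 of 13, stood at the lowest q of the table, where the implied SE can only be bounded, at 24.7% of the log2 ratio.

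A tandem pair on chromosome 1 rose in both lines. PER4 (AT1G14540, 4974021 to 4975705) was 6.82-fold higher in glk12 and 3.03-fold higher in RPGE2-OX in the authors' deposited table (log2 ratios 2.77 and 1.60, q = 0.0019 and 0.0018). Its neighbour AT1G14550 (4978922 to 4980466) has an infinite upward ratio in both lines at the same q values, which means that its wild-type value is listed at 0. No fold is given for it. The coding sequences of the pair are 72.3% identical.

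Prx37 (AT4G08770, chromosome 4, 5598037 to 5600398) encodes an apoplastic peroxidase of the vascular bundles whose overexpression dwarfs the plant and raises wall-bound phenolics. In the authors' deposited table it was 5.16-fold higher in glk12 (log2 ratio 2.37, q = 0.0019) and 1.55-fold higher in RPGE2-OX (0.63 with an implied SE of 0.17, q = 0.0046). The neighbouring copy AT4G08780 (5604105 to 5608290) was 3.33-fold higher in glk12 (1.74, implied SE 0.50, q = 0.013) while its RPGE2-OX ratio of 0.28 did not pass (q = 0.83). The 2 copies are near-identical, with 93.8% of 1041 coding bases shared and a longest common run of 101 bases. The sources used here do not say how reads that match both were assigned, so the split between the copies is uncertain, and AT4G08780 also overlaps AT4G08790. In all, 65 coding bases differ between the copies, and a read must cover a differing base to tell them apart. The 60 coding bases in which the copies differ most are bases 577 to 636, counted from the first coding base. They are shown with their 9 differing bases in capitals (RefSeq, TAIR10.1, coding strand).
AT4G08770: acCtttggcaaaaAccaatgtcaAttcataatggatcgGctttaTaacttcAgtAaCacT
AT4G08780: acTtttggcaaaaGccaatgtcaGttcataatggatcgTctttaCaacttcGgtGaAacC

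Members annotated with a part in defence stood among the rises. AT5G39580 (chromosome 5, 15847065 to 15849141), annotated to defence against fungi, was 4.30-fold higher in glk12 and 1.86-fold higher in RPGE2-OX in the authors' deposited table (log2 ratios 2.11 and 0.89, q = 0.0019 and 0.0018). PRX71 (AT5G64120, chromosome 5, 25659257 to 25661007), a cell wall peroxidase of lignification that also carries a defence annotation, was 2.40-fold and 1.75-fold higher there (1.27 and 0.81, q = 0.0019 and 0.0018). These loci are each other's closest relative within the family, at 75.5% coding identity, although PRX71 lies in a tandem group far from AT5G39580. AT4G36430, annotated to the response to other organisms, was 4.91-fold and 1.66-fold higher (2.30 and 0.73, q = 0.0019 and 0.0018 in the deposited table). DOX1, which is induced by salicylic acid and oxidative stress according to its annotation, was 2.25-fold and 1.63-fold higher in the authors' table (1.17 and 0.71, q = 0.0019 and 0.0018). Annotations that name defence, another organism or the respiratory burst are attached to 4 of the 13 members that rose, 0 of the 13 that fell and 2 of the 36 others. The 4 are AT5G39580, PRX71, AT4G36430 and AT2G18150, which is annotated to the response to nematodes. The 2 among the others are AT2G37130, annotated to defence against fungi, and AT5G19880, annotated to the response to virus. AT2G37130 lay below 0 in both lines without passing, with deposited log2 ratios of -0.52 and -0.27 (q = 0.054 and 0.26, glk12 first). AT5G19880 had a glk12 ratio of 6.39 that did not pass (q = 0.55), and it was untested in the other line. DOX1 is not counted, since the annotation gives its processes only as a number.

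Besides AT4G08780, 4 members rose in glk12 without passing in RPGE2-OX, and the annotation gives none of them a gene name. AT5G06730 (chromosome 5, 2079925 to 2081685) was 10.2-fold higher in glk12 in the authors' deposited table (log2 ratio 3.34, q = 0.0019), and its ratio in RPGE2-OX was 0.13 (q = 0.93). Its closest relative and neighbour, peroxidase 2 (AT5G06720, 80.8% coding identity, described in other words), stood at -0.21 (q = 0.90) and -0.49 (q = 0.36) in the deposited table. AT1G49570 (chromosome 1, 18346958 to 18349049) was 4.27-fold higher in glk12 (2.09, q = 0.0019) and stood at 0.01 in RPGE2-OX (q = 0.99) in the same table. AT2G18150, annotated to the response to nematodes, was 4.27-fold higher in glk12 (2.09, q = 0.0019) and at 0.41 in RPGE2-OX (q = 0.24) in the deposited table. AT5G19890 was 3.73-fold higher in glk12 (1.90, q = 0.0019) and at 0.39 in RPGE2-OX (q = 0.68) in the authors' deposited table.

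The falls were led by AT5G47000 (chromosome 5, 19068803 to 19070333), which has a single coding exon. It was 4.79-fold lower in glk12 and 2.80-fold lower in RPGE2-OX in the authors' deposited table, with log2 ratios of -2.26 in glk12 (implied SE 0.69, q = 0.023) and -1.48 in the other line (implied SE 0.49, q = 0.039). AT3G49960 (chromosome 3, 18524084 to 18525792), whose annotation records enrichment in root hair cells, was 2.25-fold lower in glk12 and 1.60-fold lower in RPGE2-OX (-1.17 and -0.68, q = 0.0019 and 0.0018 in the authors' deposited table). Root expression is also the annotation of AT4G26010 (chromosome 4, 13200414 to 13202164), which was 1.88-fold and 1.45-fold lower in the deposited table (-0.91 and -0.54, q = 0.0019 and 0.0046) and overlaps AT4G26020. AT5G17820 (chromosome 5, 5887871 to 5890260), annotated to root and leaf, was 1.77-fold and 1.44-fold lower in the authors' table (-0.83 and -0.53, q = 0.0019 and 0.0070). In whole seedlings, fewer cells of a type and less RNA per cell cannot be told apart.

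RCI3 (AT1G05260, chromosome 1, 1529767 to 1531484), a cold-inducible cationic peroxidase, was 1.61-fold lower in glk12 and 1.47-fold lower in RPGE2-OX in the authors' deposited table. Its log2 ratios were -0.69 (implied SE 0.18, q = 0.0035) and -0.56 (q = 0.0018). AT2G18980 stood at -0.59 and -0.50 in the deposited table (q = 0.045 and 0.013) and fell in both lines. In glk12 it was the member closest to the threshold from inside. AT1G44970 and AT2G34060 fell in glk12 at -0.86 (q = 0.018) and -0.74 (q = 0.032), and stood at -0.45 (q = 0.12) and -0.48 (q = 0.066) in RPGE2-OX in the authors' deposited table.

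In RPGE2-OX 5 further members fell whose glk12 ratios were also below 0 but did not pass. PRX72 (AT5G66390, chromosome 5, 26515905 to 26517599), which takes part in lignin synthesis, was 1.38-fold lower in RPGE2-OX in the authors' deposited table (log2 ratio -0.47, implied SE 0.15, q = 0.032) and stood at -0.56 in glk12 (q = 0.080). AT5G58390 was 1.59-fold lower in RPGE2-OX (-0.67, q = 0.0070), with a glk12 ratio of -0.68 (q = 0.060) in the deposited table. AT3G32980 was 1.37-fold lower in RPGE2-OX (-0.45, q = 0.0092) and at -0.40 in glk12 (q = 0.19) in the deposited table. The tandem pair AT2G38380 and AT2G38390 was 1.42-fold and 1.46-fold lower in RPGE2-OX (-0.51 and -0.55, q = 0.0033 and 0.0018) and at -0.28 and -0.50 in glk12 (q = 0.49 and 0.088) in the authors' table. Their coding sequences are 90.6% identical, so reads may have been divided between them.

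Each of the 12 members that rose in glk12 with a finite ratio had a lower ratio in RPGE2-OX, and since these were selected for a rise in glk12, that order is partly fixed by the choice. The difference itself was therefore tested over all genes with errors implied by the deposited q values. Of 50 members tested in both lines with finite ratios 0 differed at an adjusted p below 0.05, where 32 of 21380 genes did, 0.15%. At an unadjusted p below 0.05, 8 of the 50 members had the lower ratio in RPGE2-OX and 0 had the higher, against 2.28% and 1.32% of all genes. The member nearest to passing was AT5G06730, with a log2 difference of -3.21 ± 0.88 (RPGE2-OX minus glk12, SE implied by the authors' q values, normal test with Benjamini-Hochberg adjustment, adjusted p = 0.091). From the same errors, implied by q values of the authors, AT2G18150 differed by -1.69 ± 0.55 (adjusted p = 0.34) and Prx37 by -1.73 ± 0.61 (adjusted p = 0.49). The other 5 that passed unadjusted were AT1G49570, AT4G36430, AT5G19890, AT4G08780 and AT5G39580, with differences from -2.08 to -1.21. The errors of genes at the lowest q are upper bounds, so this test misses differences and a count of 0 does not show that the members act alike in both lines. With an error borrowed from the other line 3 members, AT5G06730, AT2G18150 and Prx37, passed at adjusted p values of 1.1e-05, 0.0010 and 1.6e-05, where 0.267% of all genes passed as lower in RPGE2-OX.

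Some members with a known part in wall lignification did not pass, while others with such a part, PRX52, PRX71 and PRX72, were called. PER64 (AT5G42180), which makes the lignin of the Casparian strip, stood at -0.85 in glk12 (q = 0.088) and, in RPGE2-OX, at -0.43 (q = 0.25) in the authors' deposited table. AT5G51890, annotated to lignification of tracheary elements in roots, stood at -0.36 (q = 0.55) and -0.47 (q = 0.12) in the authors' table. PRXR1 (AT4G21960), to which the annotation gives no part in lignification, stood at 0.25 (q = 0.64) and -0.22 (q = 0.51) there. Among tested members without a call, 26 of 32 in glk12 lay below 0, and 20 of 32 did so for RPGE2-OX. The values closest to the threshold from outside were those of AT2G37130 in glk12 (-0.52, q = 0.054) and AT5G15180 in RPGE2-OX (-0.59, q = 0.059) in the deposited table. Inside it in RPGE2-OX, the nearest were AT5G47000 and PRX52.

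Large ratios alone did not decide a call. AT5G19880 and AT3G03670 had deposited log2 ratios of 6.39 and 5.43 in glk12, the highest finite ones in the family, with q = 0.55 and q = 0.68, and were not tested in RPGE2-OX. AT1G30870, annotated to root, stood at -0.92 (q = 0.38) in glk12 and at -0.98 (q = 0.16) in RPGE2-OX in the authors' table. AT1G34510, also annotated to root, stood at -0.84 (q = 0.11) and -0.64 (q = 0.11) in the same table. In all, 9 members were tested in neither line: AT1G05240, PRX2 (AT1G05250), AT1G24110, AT2G18140, AT2G24800, PER36 (AT3G50990), AT4G17690, AT4G33870 and AT5G58400. PER36 acts in the extrusion of seed coat mucilage, and the annotation places AT1G24110 in pollen and flower.

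The family is spread over all 5 chromosomes, with 12, 12, 8, 11 and 19 members on chromosomes 1 to 5. The 61 members with the domain have coding sequences of 933 to 1215 bases (median 990), and 38 of them have 4 coding exons. Coding identity over pairs of these members ranged from 44.3% to 100% with a median of 51.9%, and 5 of 1830 pairs were above 90%. All 5 are tandem neighbours. AT1G05240 and PRX2 have identical coding sequences over 978 bases and were not tested in either line.

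Neighbours within 20 kb shared a direction in some groups and not in others. Both PER4 and AT1G14550 rose in both lines, and both members of the Prx37 pair rose in glk12. In the group of AT5G64100, AT5G64110 and PRX71, PRX71 alone rose, and the others stood at -0.40 and -0.03 in glk12 (q = 0.20 and 0.99) and at -0.32 and -0.12 in RPGE2-OX (q = 0.14 and 0.88) in the authors' deposited table. Their coding identity to PRX71 is 59.7% and 61.1%, lower than that of AT5G39580. AT4G37520 and AT4G37530 share 92.4% of coding bases and neither passed, with glk12 ratios of 0.45 and -0.07 (q = 0.16 and 0.96) and RPGE2-OX ratios of 0.29 and 0.01 (q = 0.24 and 0.99) in the deposited table. AT2G18150 rose in glk12, and AT2G18140, at 91.7% coding identity with a longest common run of 126 bases, was not tested, so the split of reads between them is uncertain.

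**Figure D3:**
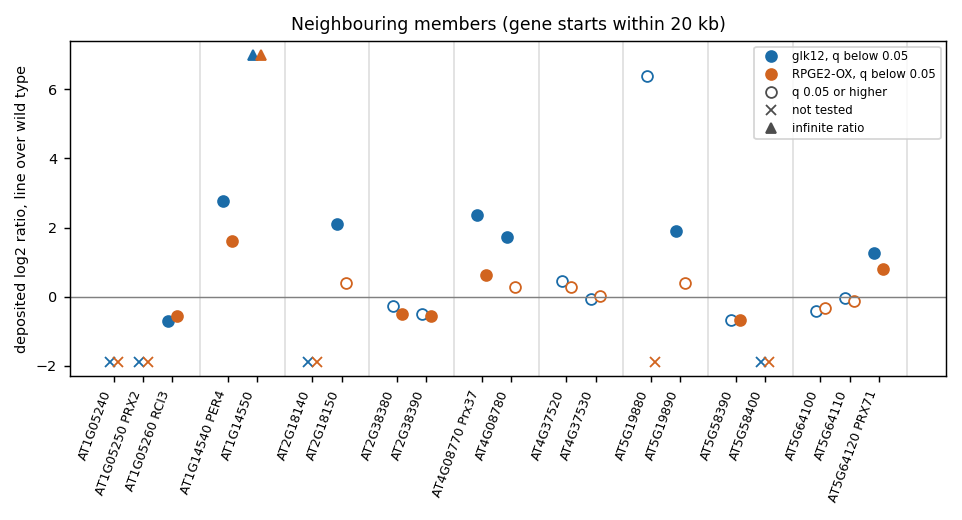
Deposited log2 ratios (y axis, line over wild type) of the members whose gene starts lie within 20 kb of another member, grouped by neighbourhood, with glk12 in blue and RPGE2-OX in orange, filled where q is below 0.05. Crosses near the bottom mark untested members and triangles at the top the infinite ratios of AT1G14550, and PRX71 lies above 0 while AT5G64100 and AT5G64110 lie at or below it.

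The 250 bases before each gene start were searched on both strands for 5 short words. TTGAC, the core of the W-box bound by WRKY factors, was found before 8 of the 13 members that rose, 4 of the 13 that fell and 12 of the 36 others, against 44.9% of 27444 protein-coding genes. At least 2 matches lay before 5, 2 and 3 members of these groups, against 14.1% of genes. CCAATC, a word linked to GLK binding, was found before 3, 1 and 5 members (10.2% of genes), GATTCT before 1, 3 and 5 (15.9%), ACGTG before 5, 3 and 13 (22.9%) and the G-box CACGTG, which contains ACGTG, before 0, 1 and 2 (6.49%). The groups are small and were formed by the calls, so these are descriptions, and a match is not a binding site. The windows of AT5G39580 and PRX71, the related pair that rose in both lines, and of AT4G26010 and AT5G17820, which fell in both, are shown with TTGAC or its reverse complement in capitals. There are 3 matches in each of the first 3 and 1 in the last, so several matches occur before a member that fell as well (RefSeq, TAIR10.1, gene strand).
AT5G39580, chr5:15849142-15849391, minus strand: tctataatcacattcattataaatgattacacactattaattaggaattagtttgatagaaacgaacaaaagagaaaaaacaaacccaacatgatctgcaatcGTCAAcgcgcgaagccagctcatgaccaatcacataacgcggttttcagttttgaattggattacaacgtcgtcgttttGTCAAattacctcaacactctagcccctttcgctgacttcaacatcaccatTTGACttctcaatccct
PRX71, chr5:25661008-25661257, minus strand: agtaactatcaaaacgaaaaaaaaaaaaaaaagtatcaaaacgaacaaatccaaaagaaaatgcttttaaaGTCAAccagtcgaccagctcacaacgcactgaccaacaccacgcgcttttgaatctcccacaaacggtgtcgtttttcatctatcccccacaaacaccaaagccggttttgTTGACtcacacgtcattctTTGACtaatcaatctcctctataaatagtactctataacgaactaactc
AT4G26010, chr4:13200164-13200413, plus strand: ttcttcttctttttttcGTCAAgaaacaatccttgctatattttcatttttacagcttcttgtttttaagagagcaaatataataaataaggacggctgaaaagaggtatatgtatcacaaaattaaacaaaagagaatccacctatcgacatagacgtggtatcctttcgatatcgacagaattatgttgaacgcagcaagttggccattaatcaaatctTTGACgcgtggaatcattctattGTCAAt
AT5G17820, chr5:5890261-5890510, minus strand: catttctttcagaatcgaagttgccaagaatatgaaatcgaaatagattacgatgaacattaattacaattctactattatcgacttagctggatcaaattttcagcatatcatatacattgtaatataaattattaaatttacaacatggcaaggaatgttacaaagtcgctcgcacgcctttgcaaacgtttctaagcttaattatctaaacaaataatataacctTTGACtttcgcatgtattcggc

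Where the annotation names organs, root is among them for 6 of 6 members that rose, 6 of 7 that fell and 12 of 15 others. Root is the only organ named for 1, 2 and 5 of them.

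Among class III peroxidases with the word peroxidase in another description, 9 loci were tested. In glk12 they gave 0 rises and 1 fall, and in RPGE2-OX 0 rises and 2 falls (medians -0.25 and -0.39). Over all tested genes 3.04% were called lower in glk12 and 3.98% in RPGE2-OX. Class III peroxidases described without the word peroxidase were not sought, so these counts do not cover all that lie outside the 62 loci. RHS18 and RHS19, which are given further on with a root hair list and fell in both lines, were not screened for the domain and are not counted here. AT4G30170, described as a peroxidase family protein and at 78.5% coding identity to AT2G18980, was 1.63-fold lower in glk12 and 1.41-fold lower in RPGE2-OX in the authors' deposited table (q = 0.0019 and 0.0082). Peroxidase CA (AT3G49110), which takes part in the oxidative burst of defence, was 2.14-fold lower in RPGE2-OX (log2 ratio -1.10, q = 0.0018) and at -0.25 in glk12 (q = 0.62), while its neighbour peroxidase CB (AT3G49120), a copy with 90.4% coding identity, stood at -0.10 in RPGE2-OX (q = 0.84) and 0.11 in glk12 (q = 0.90) in the deposited table.

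Genes that act beside the peroxidases were read from the same table. Over all tested genes 5.67% were called in glk12 (2.63% higher, 3.04% lower) and 6.55% in RPGE2-OX (2.57% higher, 3.98% lower). The counts of this and the next lists are to be read beside these shares, and no list was tested as a set. Of 21 tested genes for monolignol synthesis and lignin polymerisation, 0 rose in either line, 1 fell in glk12 and 3 fell in RPGE2-OX (medians 0.09 and -0.22). The laccase gene LAC11 fell in both lines, by 0.79 and 0.85 on the log2 scale (q = 0.020 and 0.0018), and 4CL3 and FAH1 fell in RPGE2-OX by 1.46 and 0.39 in the authors' deposited table (q = 0.0018 and 0.048). Of 5 tested NADPH oxidase genes, whose enzymes supply superoxide for hydrogen peroxide, RBOHD rose in glk12 by 1.91-fold (q = 0.0019) and RBOHC fell by 0.71 on the log2 scale (q = 0.018), with RPGE2-OX ratios of -0.14 (q = 0.70) and -0.43 (q = 0.065) in the deposited table. RBOHD is the main oxidase of the defence burst and RBOHC acts in root hair growth.

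A further list held genes named as other enzymes that remove hydrogen peroxide or superoxide, and whether each, APX4 included, has that activity was not checked. Of its 24 tested genes 1 rose and 1 fell in glk12, and 3 rose and 2 fell in RPGE2-OX (medians 0.11 and 0.06). The catalase gene CAT3 fell in both lines, by 0.67 and 1.27 on the log2 scale (q = 0.020 and 0.0018). The superoxide dismutase gene CSD1 rose in glk12 by 1.98-fold (q = 0.018). In RPGE2-OX the plastid superoxide dismutase genes FSD2 and FSD3 and the glutathione peroxidase gene GPX1 had log2 ratios of 0.58, 0.69 and 0.62 and rose (each q = 0.0018), and APX4 fell by 0.79 on the log2 scale (q = 0.0033), all in the authors' deposited table. Of 7 regulators linked to peroxidase or lignin genes, ORE1, a senescence factor, rose by 2.06-fold in glk12 (q = 0.0019) and MYB46, a regulator of secondary walls, fell by 0.81 on the log2 scale in RPGE2-OX (q = 0.038) in the deposited table. UPB1, a repressor of root peroxidase genes, passed in neither line.

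Several genes of a root hair list fell as well. The list was not screened for class III peroxidases, RHS18 and RHS19 included, so it may overlap the family and is not a separate set beside it. Of 22 tested genes of the root hair list, 8 fell and 0 rose in glk12, with ratios from -1.34 to 0.12 and a median of -0.82. In RPGE2-OX 5 fell and 0 rose, with ratios from -0.71 to -0.07 and a median of -0.44. COW1 fell by 0.95 and 0.56 on the log2 scale and RHS13 by 1.08 and 0.48 in glk12 and RPGE2-OX in the authors' deposited table (q = 0.0035 and 0.030 for COW1, 0.0035 and 0.037 for RHS13). RHS18 and RHS19, also of this list, fell by 0.84 and 0.92 in glk12 and by 0.55 and 0.44 in RPGE2-OX in the deposited table (q = 0.026 and 0.0019, 0.040 and 0.038). EXPA18, RHD2 (RBOHC), RSL2 and RHS12 were the other falls in glk12, with log2 ratios from -1.33 (RSL2) to -0.71 (RHD2), and PRP3 fell by 0.66 in RPGE2-OX. The part of root hair amount in the falls of the peroxidases was not tested.

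Further markers were read in the same way. Of 11 tested genes of the Casparian strip and endodermis, PER64 among them, 0 passed in either line at q below 0.05 (medians -0.45 and -0.27, against 0.02 and 0.01 over all tested genes). Of 4 xylem markers XCP2 fell in RPGE2-OX, by 0.47 on the log2 scale (q = 0.010), and 0 passed in glk12. All 4 xylem markers lay below 0 in both lines, with medians of -0.40 in glk12 and -0.47 in RPGE2-OX. Of 3 guard cell markers KAT1 fell in both lines, by 0.82 and 0.64 (q = 0.0019 and 0.0018), and neither stele marker passed. Of 4 leaf mesophyll markers the antenna genes LHCB1.1, CAB1 and LHCB2.1 fell in both lines, with log2 ratios of -2.17, -1.54 and -1.54 in glk12 and of -2.81, -2.06 and -1.91 in RPGE2-OX in the authors' deposited table, while RBCS1A stood at -0.11 (q = 0.95) and -0.18 (q = 0.79).

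**Figure D4:**
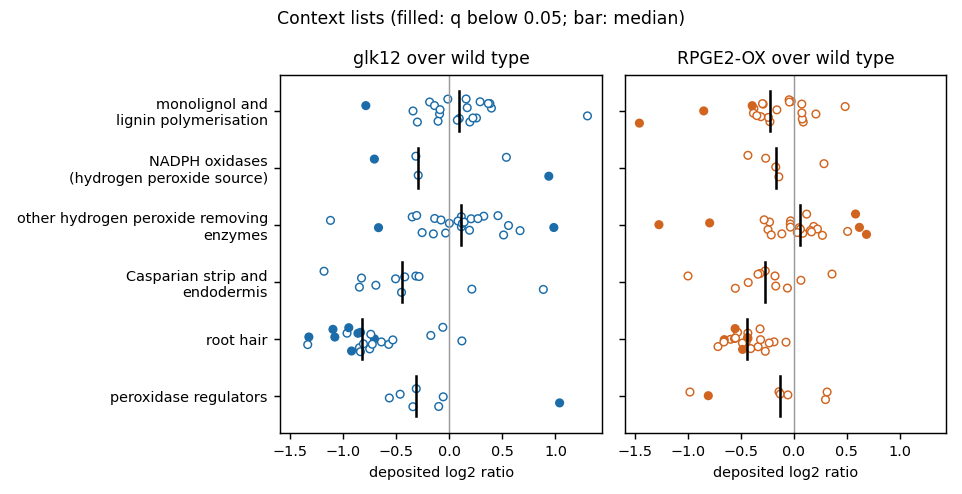
Deposited log2 ratios (x axis, line over wild type) of the tested genes of 6 lists around the peroxidases, with glk12 on the left and RPGE2-OX on the right. Each point is a gene, filled where q is below 0.05, the vertical place within a row is arbitrary and the black bar is the list median, and the root hair genes lie almost all below 0 in both lines.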

How the data were processed

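Whole-seedling RNA was sequenced from 9 libraries, per the labels' protocols. The tools CASAVA 1.8.2, TopHat, Cufflinks, Cuffdiff and the build TAIR10 come from the submitters' processing notes, which are used here without a role for each. The authors deposited log2 ratios and q values (a p-value type) for RPGE2-OX and glk12 over Col-0, and no levels or counts, so depth is unknown. Genes with q = 1 were taken as untested. Infinite ratios, stored as spreadsheet text, were read in the way that gave 1294 genes with infinite values in both columns the same sign, and 0 opposite signs. A gene was called at the authors' q below 0.05, two-sided.

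Raw p values came from inverting the Benjamini-Hochberg adjustment, on whole steps of 5e-05 within 0.02 of a step for 99.9% (glk12) and 99.8% (RPGE2-OX) of genes with q below 0.5. The number of tests that maximised this share was used. The implied SE is a ratio's size over the normal quantile of its p. The line difference test adds these errors as variances, with Benjamini-Hochberg adjustment. On simulated data with known differences it made few false calls and missed a large part of the true ones, fewer with the borrowed error. The shared wild type makes its error too large, and the normal quantile ignores that 3 replicates give few degrees of freedom. Upstream windows and coding sequences were read from RefSeq TAIR10.1 by locus, matched for all 62 members. Coding sequences were aligned with Biopython 1.88, and identity counts gaps as differences. Context genes were matched by symbol, and SGN3, SGN1, RHS2, RBOHE, RBOHG and RBOHI were not matched. Protein sequences were not used here. Members, lists and tests were chosen with earlier results of these data known. Named genes are all called members, those nearest the threshold, the largest ratios that did not pass and called context genes, and members with a well-known role were added after their values were seen. Of 15 rows with the word peroxidase in another description, 11 carry the plant peroxidase domain and were used.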

Additional observations from a re-analysis of the deposited data

How the results depend on the processing

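No paired analysis was possible because the table holds no value for a single replicate, and for the same reason no replicate could be left out. In glk12, falls numbered 4 at q below 0.01, 15 at q below 0.1 and 2 with a minimum of 2-fold, against 8. In RPGE2-OX a minimum of 2-fold left 4 calls, 3 higher and 1 lower, against 19, 8 and 11. Between the lines, 3 members passed with a borrowed error and 1 (AT5G06730) at an adjusted p below 0.1, against 0. All other counts stayed within 1.5 times under these thresholds. They did so too with the 11 loci under another description added (22 and 21 calls) and without DOX1 (20 and 18). The same held without members of pairs above 90% coding identity (18 and 16), and the last 2 settings were chosen after the data were seen. Counting every finite ratio as tested changed the share called to 33.3% and 31.0%. Of the 50 single values of called members with finite ratios, 9 lost their call at q below 0.01 and 4 gained one at 0.1. Over all tested members, q below 0.1 gave 28 calls in glk12 and 21 in RPGE2-OX, against 21 and 19 at q below 0.05. Centring ratios on the median of all tested genes cannot change a call, which rests on q, and it turned the sign of 1 value, that of AT1G49570 in RPGE2-OX, which lies at 0.01 and was not called. The borrowed error, a multiple of the other line's, may understate the true one.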
